A study of Homo sapiens with 8 samples.

Results

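The 10 nuclear genes described here are TFAM, TFB1M, TFB2M, POLRMT, TWNK, POLG, POLG2, SSBP1, MGME1 and TOP1MT. Their products serve the copying, packaging, transcription or repair of mitochondrial DNA, except that of TFB1M, which methylates a mitochondrial ribosomal RNA. The genes were taken by name, and each matched 1 of the 58735 gene IDs in the count files. All 10 passed the filter on low counts and averaged 5 CPM or more, as did 10710 genes in all, called expressed below. CPM is a gene's deposited read count per 1000000 counts of its library, with library sizes adjusted by edgeR's TMM method. The cells were MOLM-13, a suspension line established from acute myeloid leukemia. The study made this line resistant to the alkylating drug busulfan, with mitochondrial copy number among its themes. The 4 libraries used here are its drug-free arm: untreated parental cells (replicate 2, kept for at most 20 passages), and vehicle cultures after treatment courses 1, 3 and 5 with 1% DMSO. No cells in these 4 groups had met busulfan, and each group is 1 library. The labels give no passage number for the DMSO cultures, so passage and course cannot be told apart. The labels also list 3 busulfan libraries and a parental replicate 1, which were not analysed here.

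Mitochondrial DNA is a small circular genome present in many copies per cell and wrapped into nucleoids by TFAM. Its transcription needs 3 nuclear-encoded proteins: the polymerase POLRMT, TFAM, which bends the promoter, and TFB2M, which helps melt it. Replication needs the helicase TWNK, the polymerase POLG with its accessory subunit POLG2, and the single-strand binding protein SSBP1. MGME1 trims DNA ends and TOP1MT relaxes supercoils. Dividing cells such as leukemia cells need this machinery to keep the copy number up from one division to the next.

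Promoters of members are shown first because several share a motif, and the data below show whether such genes moved together. RefSeq windows of 250 bases before to 50 bases after the gene start (GRCh38.p14) were found for 8 of the 10 genes. The letters CGCNTGCGC, which resemble the core of the site bound by the factor NRF1, a regulator of nuclear genes for mitochondrial proteins, were searched on both strands. They were present in 5 of the 8 genes, beside 9.02% of the 27305 genes and 7.52% of the 35116 windows in the table. Those shares take in genes that were not expressed here. Of the expressed genes with a window, 1504 had the letters and 6570 did not. The 250 bases before the start of these 5 genes follow, 5′ to 3′ on the gene's strand, with the motif in capitals and everything else in lower case. They lie at chr10:58385160-58385409 (plus strand), chr6:155314485-155314734 (minus), chr1:246566262-246566511 (minus), chr19:633538-633787 (minus) and chr17:64497055-64497304 (minus).
TFAM: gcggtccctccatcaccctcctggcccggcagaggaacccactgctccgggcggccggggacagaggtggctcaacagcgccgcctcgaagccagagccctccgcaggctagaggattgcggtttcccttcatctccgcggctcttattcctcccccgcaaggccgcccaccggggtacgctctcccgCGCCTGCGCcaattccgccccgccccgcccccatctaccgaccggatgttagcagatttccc
TFB1M: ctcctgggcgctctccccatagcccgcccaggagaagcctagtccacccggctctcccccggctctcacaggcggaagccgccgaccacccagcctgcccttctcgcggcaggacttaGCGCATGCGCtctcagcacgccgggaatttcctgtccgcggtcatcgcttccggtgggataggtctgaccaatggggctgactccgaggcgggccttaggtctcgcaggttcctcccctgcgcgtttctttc
TFB2M: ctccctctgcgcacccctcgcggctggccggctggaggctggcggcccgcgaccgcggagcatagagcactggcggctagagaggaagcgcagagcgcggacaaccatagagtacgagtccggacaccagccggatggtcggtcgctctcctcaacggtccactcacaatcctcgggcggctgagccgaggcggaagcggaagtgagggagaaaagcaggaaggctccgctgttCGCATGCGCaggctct
POLRMT: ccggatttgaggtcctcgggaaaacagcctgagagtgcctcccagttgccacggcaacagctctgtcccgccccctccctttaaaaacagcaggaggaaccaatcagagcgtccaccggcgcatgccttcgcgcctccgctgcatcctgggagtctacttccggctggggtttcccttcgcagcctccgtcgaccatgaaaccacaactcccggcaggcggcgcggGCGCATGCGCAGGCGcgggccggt
POLG2: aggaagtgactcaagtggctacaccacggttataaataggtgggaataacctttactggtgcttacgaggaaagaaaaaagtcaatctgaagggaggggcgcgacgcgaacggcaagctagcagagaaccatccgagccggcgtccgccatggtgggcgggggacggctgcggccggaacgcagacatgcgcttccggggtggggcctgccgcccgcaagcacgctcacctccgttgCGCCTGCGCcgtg
Counted from the start site, the first base of the motif lay at -62 in TFAM, -132 in TFB1M, -16 in TFB2M, -24 in POLRMT and -13 in POLG2. In TFB1M and POLRMT overlapping matches made the run in capitals longer. The ETS-type letters CGGAAG were in 6 of the 8 genes (22.6% of genes in the table) and the SP1-type letters GGGCGG in 7 (48.3%). The E-box letters CACGTG were in 0 (8.77%), and each was searched on both strands. Among expressed genes with a window, 3390 had the ETS-type letters and 4684 did not. For the SP1-type letters these counts were 6284 and 1790, and for the E-box 1073 and 7001. The 8 genes are all expressed, so the counts among expressed genes are the closer base. No match of one motif overlapped a match of another in these windows. The letters were chosen after the windows had been read, and a match is a description of the sequence only.

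The gene counts totalled 44795976 to 56825811 per library, and every member had at least 472 counts in every library, so counting error was small beside most differences below. Of the 10710 expressed genes, 35.9% had their lowest level in DMSO course 1 and 34.3% their highest, and 29.6% had their lowest level in course 5 and 35.5% their highest. All 10 myeloid leukemia markers were present at 1 CPM or more in each library, with summed levels of 3341 to 4507 CPM. Single markers were less even, with log2 ranges over the 4 libraries from 0.06 (HOXA9) to 1.47 (MPO). Erythroid markers summed to at most 0.0232 CPM. Lymphoid markers summed to 5.93, 3.25, 0.378 and 0.439 CPM in the parental library and courses 1, 3 and 5. Of these, MS4A1 and CD2 had 0 counts in all 4 libraries, and CD3D had 243, 24, 3 and 4 counts. The 6 epithelial and stromal markers summed to 172 to 197 CPM, most of it PECAM1, which myeloid cells also express. KRT18, a keratin of that list, was highest in the parental library (28.5 CPM) and stood at 11.7, 5.67 and 4.34 CPM in courses 1, 3 and 5, and its part in the results below was not tested. In bulk RNA, fewer cells of a type and less RNA per cell cannot be told apart.

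The main pattern was a low point in DMSO course 1. Of the 10 members, 7 had their lowest level in course 1, where 35.9% of all expressed genes had theirs. In course 5, 7 members had their highest level (35.5% of genes). The members' range over the 4 libraries was a median 1.59-fold from the lowest to the highest library, beside 1.52-fold for all expressed genes. TWNK (2.14-fold) and TFB2M (2.05-fold) spanned most, and MGME1 (1.18-fold) least.

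**Figure D1:**
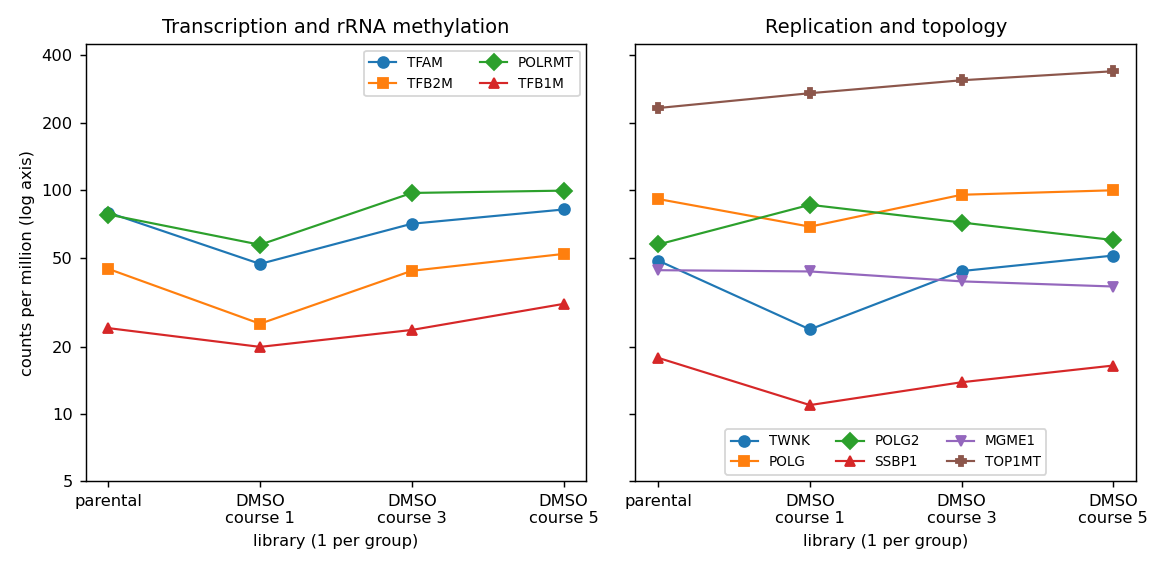
Level of each of the 10 genes in the 4 libraries, in CPM on a log axis, with 1 library per group and lines that join the same gene. In course 1, 7 genes dip, among them TWNK from 48.5 to 23.9, while POLG2 peaks there at 86.0, MGME1 is slightly lower at each step and TOP1MT is higher at each step, from 233 to 340.0.

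Among the genes of the transcription machinery, TFAM (ENSG00000108064, chromosome 10) had 79.4 CPM in parental cells, then 46.8, 70.8 and 82.0 CPM in courses 1, 3 and 5. Course 1 was the low library, course 3 was slightly below the parental level, and course 5 could not be told from it by counting error (log2 ratio 0.05, 95% interval -0.02 to 0.11). TFB2M (ENSG00000162851, chromosome 1) had 44.5, 25.3, 43.6 and 51.9 CPM in the same order of libraries. Its course 3 level could not be told from the parental level by counting error, with a log2 ratio of -0.03 (95% interval -0.11 to 0.05). POLRMT (ENSG00000099821, chromosome 19) had 77.8, 57.0, 97.2 and 99.5 CPM. Unlike TFAM, it was above the parental level in both later courses, by log2 ratios of 0.32 and 0.35. A processed copy of POLRMT, POLRMTP1, had 703, 381, 725 and 657 counts beside 4606, 2457, 4881 and 4535 for POLRMT, and reads could be split between them. TFB1M (ENSG00000029639, chromosome 6), a relative of TFB2M that methylates the small mitochondrial ribosomal RNA, had 24.2, 19.9, 23.7 and 31.0 CPM. It shared the low course 1 value, but its dip was the smallest of these 4 genes.

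Of the replication genes, TWNK (ENSG00000107815, chromosome 10) showed the deepest dip, with 48.5 CPM in the parental library and 23.9, 43.5 and 51.0 CPM in courses 1, 3 and 5. POLG (ENSG00000140521, chromosome 15), the catalytic subunit, had 91.3, 68.7, 95.4 and 99.9 CPM. SSBP1 (ENSG00000106028, chromosome 7), which coats the displaced strand, had 17.8, 10.95, 13.9 and 16.5 CPM. All 3 were lowest in course 1. In course 5, TWNK (log2 ratio to parental 0.07, 95% interval -0.01 to 0.15) and SSBP1 (-0.11, -0.25 to 0.02) could not be told from the parental level by counting error. Opposite-strand exons overlap 7.66% of the POLG exon length (FANCI), 3.61% of TWNK (MRPL43) and 7.86% of TFB1M (TIAM2), so their counts rest on the strand setting.

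POLG2, MGME1 and TOP1MT did not share the dip. POLG2 (ENSG00000256525, chromosome 17), the accessory subunit that makes the polymerase processive, stood at 57.2, 86.0, 71.7 and 59.8 CPM in the parental library and courses 1, 3 and 5. It was highest where its partner POLG was lowest. MGME1 (ENSG00000125871, chromosome 20), a single-strand exonuclease, had 43.9, 43.3, 39.1 and 37.1 CPM. TOP1MT (ENSG00000184428, chromosome 8), the mitochondrial type I topoisomerase, had 233, 271, 309.8 and 340.0 CPM. TOP1MT was in strictly rising order over 0, 1, 3 and 5 courses, as were 9.41% of expressed genes, and each of its steps was larger than its counting interval (3.99% of genes). MGME1 was in strictly falling order (6.26% of genes), but its steps were not all past their intervals, and the parental and course 1 levels differed by a log2 ratio of only -0.02 (95% interval -0.11 to 0.07).

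Single libraries were then compared in pairs. There is no replicate and hence no test, and the exact binomial 95% intervals take in counting error alone. Genes that differed 1.5-fold or more, with 1 outside the interval of the ratio, are called apart. Against the parental library, 4 members were lower in DMSO course 1, where 14.1% of the 10710 expressed genes were, and 1 was higher (12.5% of genes). The 4 lower members were TWNK with a log2 ratio of -1.02 (interval -1.13 to -0.92), TFB2M with -0.81 (-0.92 to -0.71), TFAM with -0.76 (-0.84 to -0.69) and SSBP1 with -0.70 (-0.86 to -0.54). POLRMT at -0.45, POLG at -0.41 and TFB1M at -0.28 pointed the same way without reaching 1.5-fold. POLG2 was the higher member, at 0.59 (0.52 to 0.66), just inside the threshold of 1.5-fold. With library sizes set by total gene counts, all course 1 ratios move by -0.11 and POLG2 then stands at 0.48, short of it. At 2-fold, TWNK alone remained among the lower members, beside 4.19% of genes.

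**Figure D2:**
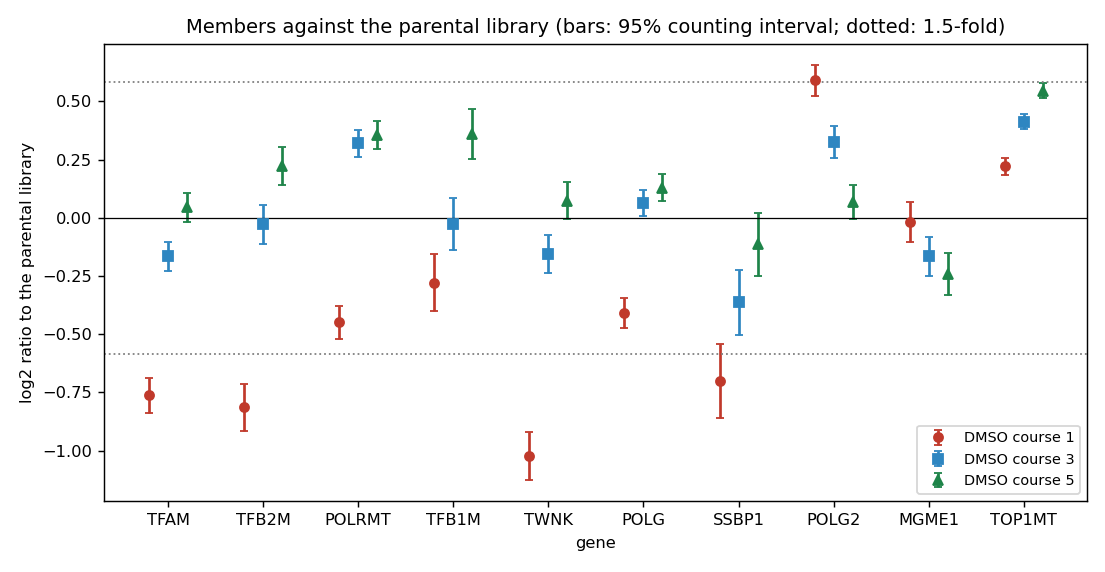
Log2 ratio of each gene in DMSO courses 1, 3 and 5 to the parental library, with bars for the exact binomial 95% counting interval and dotted lines at 1.5-fold. Course 1 lies below the dotted line for TFAM, TFB2M, TWNK and SSBP1 and at the upper line for POLG2, while all points of courses 3 and 5 lie between the lines.

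In the later courses no member stood 1.5-fold or more from the parental level, although several differed from it by more than counting error. Log2 ratios ran from -0.36 (SSBP1) to 0.41 (TOP1MT) in course 3 and from -0.24 (MGME1) to 0.55 (TOP1MT) in course 5. In course 3, 0 of 10 were apart in either direction, beside 6.49% of genes higher and 6.57% lower. In course 5, 0 of 10 were apart as well, beside 11.1% higher and 12.2% lower. Against the parental library the members had median log2 ratios of -0.43, -0.03 and 0.10 in courses 1, 3 and 5, where all expressed genes had medians of 0.02, 0.01 and 0.03. These 3 comparisons share the 1 parental library, so its own deviation enters each of them. TOP1MT came closest to the threshold in course 5, at 1.46-fold above the parental library.

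Set against course 1, the later courses were higher for the genes that had dipped. In course 3, 4 members were higher than in course 1 (13.2% of genes) and 0 were lower (12.7%). The higher ones were TWNK (log2 ratio 0.87), TFB2M (0.79), POLRMT (0.77) and TFAM (0.60). With RLE size factors, the scaling of DESeq2, TFAM stands at 0.58, under 1.5-fold, and 3 members remain. In course 5, 6 members were higher (19.3% of genes) and 0 lower (18.7%): TWNK (1.10), TFB2M (1.04), TFAM (0.81), POLRMT (0.80), TFB1M (0.64) and SSBP1 (0.59). POLG (0.54) and POLG2 (-0.52) fell just short of 1.5-fold in that pair, and by total gene counts POLG stands at 0.61 and passes 1.5-fold. At 2-fold, 0 members were higher in course 3 (3.9% of genes) and 2, TWNK and TFB2M, in course 5 (7.14%). Both comparisons use the same course 1 library that also gave the low values against the parental cells, so they do not add independent support for the dip. Between courses 5 and 3, 0 members were apart, beside 0.784% of genes higher and 4.29% lower.

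**Figure D3:**
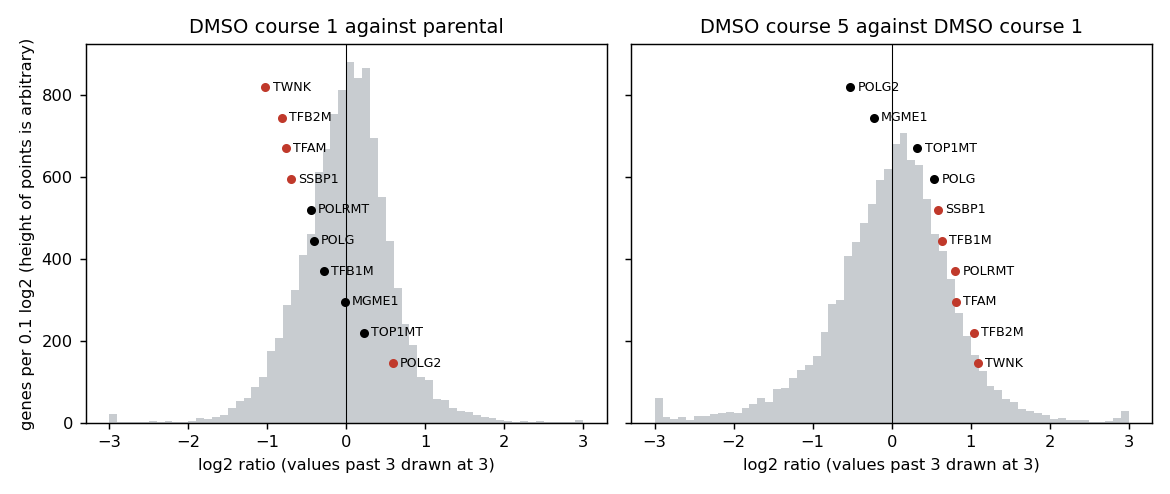
Histogram of the log2 ratio of all 10710 expressed genes (grey, genes per 0.1 log2) with the 10 members as labelled points at arbitrary heights, in red where counted as apart at 1.5-fold. Most members lie left of 0 in course 1 against parental and right of 0 in course 5 against course 1, inside the range that many other genes also reach.

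Both tests over all genes used the spread between libraries. The 3 DMSO libraries as 1 group against the parental library called 0 of 10 members and 0 of 18612 genes (0%) with edgeR's quasi-likelihood test at a Benjamini-Hochberg adjusted p under 0.05. At an unadjusted p under 0.05 it gave 0 members and 1045 genes (5.61%). DESeq2 called 0 members and 211 genes (1.13%), and limma-voom called 0 genes. The members' fold changes in this test ran from a log2 of -0.37 (SSBP1, SE 0.32) to 0.40 (TOP1MT, SE 0.25), with median -0.10, beside 0.02 over all genes tested. The standard errors of TWNK (0.45) and TFB2M (0.43) were the widest of the 10. In simulated counts with a dispersion (spread beyond counting noise) of 0.1, edgeR's test found 1 of 100 genes changed by a log2 of 1. It found 26 of 100 changed by a log2 of 2, and 100 of 100 of either size at a dispersion of 0.01. The median dispersion in these data was 0.115, so a lack of calls says little about changes of the members' size.

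The slope over 0, 1, 3 and 5 courses likewise called 0 members and 0 of 18612 genes (0%) with edgeR's quasi-likelihood test. At an unadjusted p under 0.05 it gave 2940 genes (15.8%) and 1 member, TOP1MT, with a slope of 0.10 log2 per course (SE 0.04, edgeR adjusted p = 0.304). DESeq2 called 880 genes (4.73%) and 0 members, and limma-voom 0 genes. In simulated counts with a dispersion of 0.1, edgeR's slope test found 2 of 100 genes changed by a log2 of 1 over 5 courses. It found 26 of 100 changed by a log2 of 2, and 94 and 100 of 100 at a dispersion of 0.01. Without course 1 the TOP1MT slope was 0.11 with an edgeR adjusted p of 0.0425, in a fit that called 15.2% of genes. That fit, and the next, has 1 residual degree of freedom.

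When the parental library was left out and the slope fitted to courses 1, 3 and 5, 4 members rose with the number of courses and 0 fell, in a fit that called 23.4% of 15595 genes and 9.77% as higher. TWNK rose by 0.27 log2 per course (SE 0.06, edgeR adjusted p = 0.0168), TFB2M by 0.25 (SE 0.06, adjusted p = 0.0174), TFAM by 0.20 (SE 0.05, adjusted p = 0.0241) and POLRMT by 0.20 (SE 0.06, adjusted p = 0.0430). POLG2 had a slope of -0.14 (SE 0.05, edgeR adjusted p = 0.058), which missed the threshold. With the parental library in the fit, none of these 4 passed, and on the log2 scale their parental levels lay nearer to those of courses 3 and 5 than to that of course 1. Each course is 1 library, and the labels do not say how many cultures were kept. The fit uses the same course 1 library as the ratios above, so it adds no independent support for the dip. In simulated counts with a dispersion of 0.1, this fit found 0 of 100 genes changed by a log2 of 1 over 5 courses. It also found 0 of 100 changed by a log2 of 2, and 58 and 100 of 100 at a dispersion of 0.01.

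Ratios between members within a library do not depend on library size, and several of them differed between libraries. For every 100 POLG counts there were 62.6 POLG2 counts in the parental library (95% interval 60.0 to 65.4), 125 in course 1 (119 to 131), 75.2 in course 3 and 59.9 in course 5. The course 1 interval lay far above the other 3. TWNK moved the other way against POLG, at 53.1, 34.7, 45.6 and 51.1 counts per 100. TFB2M counts per 100 TFB1M counts were 184, 127, 184 and 167, so the transcription factor dipped more than its methyltransferase relative. TFAM counts per 100 POLRMT counts were 102 in the parental library and 82.1, 72.8 and 82.4 in courses 1, 3 and 5. In all 3 DMSO libraries the interval of that ratio lay below the parental one. TOP1MT counts per 100 POLRMT counts were 299, 476, 319 and 342.

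**Figure D4:**
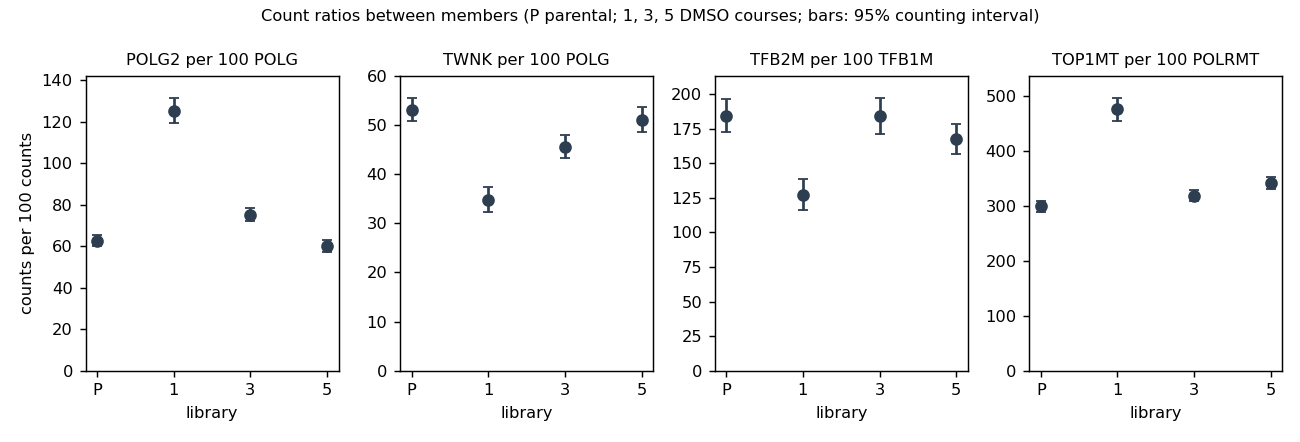
Counts of one member per 100 counts of another in the parental library (P) and DMSO courses 1, 3 and 5, with exact binomial 95% intervals and axes from 0. Course 1 is the highest point for POLG2 against POLG (125) and TOP1MT against POLRMT (476) and the lowest for TWNK against POLG (34.7) and TFB2M against TFB1M (127).

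Levels of different genes were compared only as CPM per kilobase of exon. TOP1MT was the highest of the 10 in every library, from 36.1 to 52.8 CPM per kilobase of the union of its exons. It was also the highest by the length of the principal transcript. SSBP1 was the lowest by union length, at 2.20 to 3.57 CPM per kilobase, but its principal transcript is 989 bases of a union of 4988 bases. By that length SSBP1 ranked 7th or 8th, and TWNK was lowest in every library at 6.59 to 14.1 CPM per kilobase. The rank of 8 of the 10 genes in the parental library depended on the length used, and TOP1MT and POLG kept theirs.

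The other genes of the pathway, in lists chosen by function but with earlier results of these data known, partly shared the low course 1 value. Of 14 further genes of mitochondrial DNA replication and the nucleoid, 12 were below the parental level in course 1 and 9 were at least 1.5-fold lower, with a median log2 ratio of -0.81. Of all 10710 expressed genes, 5161 were below the parental level in course 1 and 14.1% at least 1.5-fold lower, with a median of 0.02. RNASEH1, which removes RNA primers, had 17.1, 6.27, 16.1 and 22.9 CPM in the parental library and courses 1, 3 and 5. SLC25A33, a pyrimidine nucleotide carrier, had 7.15, 3.36, 8.90 and 11.4 CPM. Both were lowest in course 1 and above the parental level in course 5. ATAD3A, a membrane ATPase found with nucleoids, had 44.0, 16.1, 33.8 and 34.5 CPM, and its near-identical copy ATAD3B makes its counts uncertain. PIF1, a DNA helicase of nucleus and mitochondria, was instead in falling order, with 23.7, 21.95, 12.96 and 8.69 CPM. The medians of this list in courses 3 and 5 were -0.05 and 0.06.

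Mitochondrial RNA processing and decay genes were lower in course 1 as well. Of 19 such genes, 16 were below the parental level and 7 at least 1.5-fold lower (14.1% of all expressed genes), with a median of -0.54 (-0.14 and -0.10 in courses 3 and 5). ELAC2, which cuts the 3′ ends of tRNAs, had 115, 50.8, 91.5 and 91.0 CPM. PNPT1, an RNA-degrading phosphorylase, had 70.8, 32.3, 64.2 and 73.4 CPM. PDE12 (33.1, 15.8, 34.6 and 40.8 CPM), which removes poly(A) tails, and TRNT1 (20.7, 11, 24.2 and 25.5 CPM), which adds CCA to tRNAs, had course 3 and course 5 levels above the parental one. Each of these 4 genes was lowest in course 1, and ELAC2 stayed below the parental level in both later courses, by log2 ratios of -0.33 and -0.34.

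Elongation and termination genes were mixed, with 4 of 6 below the parental level in course 1, 2 of them at least 1.5-fold (14.1% of all expressed genes), and a median of -0.16. MRPL12, a ribosomal protein that also binds POLRMT, had 35.4, 15.6, 27.3 and 30.9 CPM, and MTERF3 had 38.9, 21.5, 41.4 and 43.1 CPM. MTERF4 instead was highest in course 1 (52.4, 66.5, 57.1 and 47.5 CPM), and MTERF2 in course 3 (9.68, 11.3, 16.0 and 12.1 CPM). The nucleotide supply genes did not share the dip: 7 of 13 expressed members were below the parental level in course 1, 0 were 1.5-fold lower (14.1% of all expressed genes) and 2 were 1.5-fold higher (12.5%), with a median of -0.03. TYMP, thymidine phosphorylase, had 45.6, 81.3, 71.0 and 62.6 CPM, and ABAT had 8.84, 14.6, 12.0 and 14.5 CPM. SAMHD1, which breaks down deoxynucleotides, had 54.6, 63.4, 80.9 and 91.0 CPM.

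Of 10 expressed regulators of mitochondrial biogenesis, 8 were below the parental level in course 1 and 3 were at least 1.5-fold lower (14.1% of all expressed genes), with a median of -0.32. PPRC1, a coactivator of the PGC-1 family, had 76.9, 32.9, 77.3 and 92.7 CPM. PPARGC1B, another coactivator of that family, had 33.0, 18.1, 33.9 and 34.0 CPM. The transcription factor MYC had 808, 591, 951 and 1120 CPM, and GABPB1, a subunit of the ETS-family factor GABP, had 27.7, 20.3, 27.9 and 33.7 CPM. All 4 were lowest in course 1. The 2 edgeR tests with all 4 libraries called no gene at all, and so none of these lists. Over the DMSO courses alone, edgeR's quasi-likelihood test called 6 of 14 replication and nucleoid genes as higher and 1 as lower, 6 of 19 RNA processing genes, 2 of 6 elongation genes and 2 of 10 regulators as higher, and 1 of 14 nucleotide supply genes in each direction. In the same fit 9.77% of all 15595 genes were called as higher and 13.6% as lower.

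Genes with and without the letters CGCNTGCGC were set side by side, without a test. Of the 1504 expressed genes with the motif, 14.1% were lower in course 1 than in parental cells by 1.5-fold or more, and the median log2 ratio was -0.04. Of the 6570 without it, 14.5% were, with a median of 0.02. Of the 5 members with the motif, TFAM and TFB2M were at least 1.5-fold lower, TFB1M and POLRMT were lower by less, and POLG2 was higher.

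In these single libraries, the summed levels of mitochondrial RNA did not follow the summed mRNA level of the factors. These data hold no measure of the factors' protein or of mitochondrial copy number. The 13 mitochondrial mRNAs summed to 110180, 105273, 127098 and 71689.8 CPM in the parental library and courses 1, 3 and 5. Their low library was course 5, at a log2 ratio of -0.62 to the parental one, and not course 1 (-0.07). TFAM, TFB2M and POLRMT together summed to 202, 129, 212 and 233 CPM, with log2 ratios of -0.64, 0.07 and 0.21. The 2 mitochondrial rRNAs summed to 20096.5, 43979, 25864 and 19473 CPM and were highest in course 1, at a log2 ratio of 1.13. MT-RNR1 and MT-RNR2, the small and large rRNA, stood there at 1.48 and 1.06, and MT-RNR1 went below the parental level in course 3 (-0.52). The 15 single mitochondrial RNAs were mixed in course 1, with log2 ratios from -0.66 to 1.48. There 9 were above the parental level and 6 below, beside 5549 and 5161 of 10710 expressed genes. Of the mRNAs, MT-ND6, coded on the other strand from the rest, stood at 177, 252, 160.0 and 78.0 CPM, and MT-ND5 at 7722, 7559, 8765 and 4520 CPM. In course 5, 15 of the 15 mitochondrial RNAs were below the parental level, where 5046 of 10710 expressed genes were. MT-RNR2 was so by less than 0.01 log2. Of the 15, 7 were at least 1.5-fold lower, beside 12.2% of expressed genes. Over the DMSO courses alone, edgeR's quasi-likelihood test called 4 of the 15 as lower, beside 13.6% of all genes in that fit. Reads placed in several locations were held outside all genes, and their share was 21.33% in course 5 and 13.86 to 15.39% in the others. The part of these reads, and of RNA selection during library preparation, in the mitochondrial values was not tested.

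**Figure D5:**
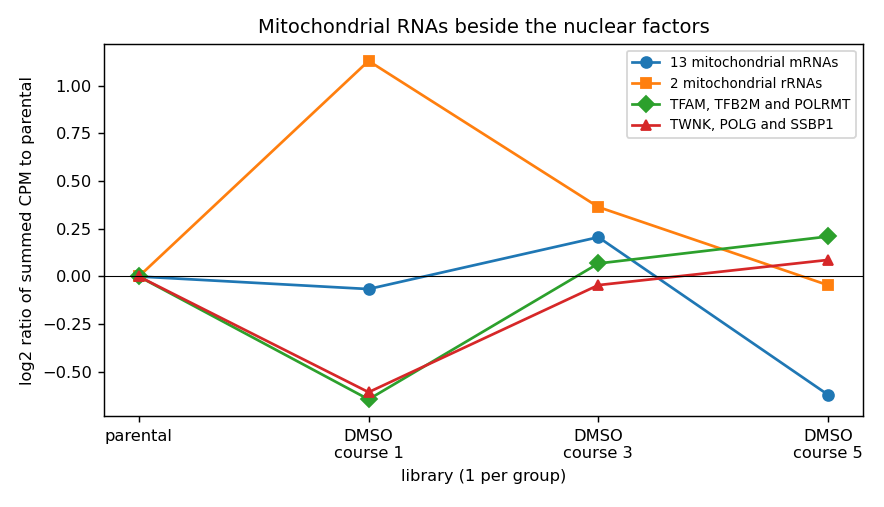
Log2 ratio to the parental library of summed CPM for the 13 mitochondrial mRNAs, the 2 mitochondrial rRNAs, the transcription genes TFAM, TFB2M and POLRMT, and the replication genes TWNK, POLG and SSBP1. In course 1 both nuclear sums are lowest (-0.64 and -0.61) while the rRNAs are highest (1.13), and in course 5 the mRNAs are lowest (-0.62) while both nuclear sums are above 0.

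The genes most like TWNK, the member with the widest range, were found among 9518 named protein-coding genes by the root mean square difference of centred log2 CPM over the 4 libraries. The nearest were EIF2S1 (0.00843), BRIX1 (0.0203), DDX28 (0.0301), PSMD7 (0.0302) and BOP1 (0.0308). EIF2S1, a translation initiation factor subunit, had 93.0, 45.7, 84.1 and 99.1 CPM. BRIX1 and BOP1, factors of ribosome assembly, had 50.8, 24.1, 45.3 and 52.6 CPM and 283, 134, 249 and 303 CPM. Among the members themselves, TFB2M (0.0756) would rank 86th and TFAM (0.118) 269th, and POLG2 (0.660) 7501st. With 4 libraries many genes share a shape, and the measure describes likeness only.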

How the data were processed

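The authors deposited raw read counts per Ensembl gene ID, whole numbers with 5 HTSeq summary rows per library, and the labels' protocols name a TruSeq RNA kit. The submitters' processing notes list FastQC 0.11.5, TopHat2 2.0.11, HTSeq 0.6p1 and hg19. Each of the 58735 IDs was found in GENCODE release 29, an annotation of GRCh38 and not of hg19, so which build was counted on is not settled. Promoter windows came from RefSeq on GRCh38.p14, and no other coordinates are given. The deposited files' names mark the counting as reverse-stranded.

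Summary rows (24.57 to 29.81% of reads) entered neither library sizes nor tests. The analysis ran in R 4.3.3 and used edgeR 4.0.16 (TMM, filterByExpr with minimum count 10 and minimum total 15, quasi-likelihood test, Benjamini-Hochberg adjustment over all genes), with DESeq2 1.42.0 and limma 3.58.1 as alternatives. Both tests had 2 residual degrees of freedom. They assume that the single parental library varies as the DMSO libraries do. The labels do not call the libraries separate cultures of 1 state, and the p-values therefore reflect no more than the spread among these 4 libraries, which may be technical. No 2 libraries agreed within counting noise. Single libraries were compared by ratios of CPM on the log2 scale, with 95% intervals from the exact binomial distribution and no test.

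All 10 members are named. Of each other list the 4 genes with the largest log2 range (prior count 2) and a mean of at least 5 CPM are named, and the 5 genes nearest to the member with the largest range. A gene that this rule selects is not reported here. The members and lists were chosen with earlier results of these data known. Of 116 list symbols, 114 matched GENCODE names and 2 matched by synonym. Functions were tested on simulated data. Alternatives were other scalings, filters and tools, a 2-fold threshold and leaving out each library. The alternative transcript length and the promoter motifs were chosen after seeing the data.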

Additional observations from a re-analysis of the deposited data

How the results depend on the processing

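Each group is 1 library, which is the chief limit: no difference between single libraries has a replicate, and intervals cover counting error only. No paired analysis was possible because each group holds 1 library. In the pooled comparison, 0 genes were called, beside 211 with DESeq2, 13 without a filter and 25 to 1578 when 1 library was left out (1578 without course 1, 25 without course 3, 31 without course 5). For the slope, 0 genes were called, beside 880 with DESeq2, 134 without a filter and 5 to 3642 when 1 library was left out (2795 without course 1, 32 without course 3, 5 without course 5, 3642 without the parental library). Fits without 1 library have 1 residual degree of freedom. Members called by the slope ranged from 0 to 4 (1 without course 1, 4 without the parental library), and in the other alternatives and the pooled comparison 0 members were called. At 2-fold, 1 member was apart between course 1 and parental, 0 between courses 3 and 1 and 2 between courses 5 and 1. With every step past its interval, 0 members were in falling order. The cause of these differences was not tested.

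Directions turned only for small values that the fits with all 4 libraries did not call. In the pooled comparison the log2 fold change of TFB1M (0.04) became -0.000719662 at a mean of 5 CPM or more and -0.030 by total gene counts. When 1 library was left out it ran from -0.15 (without course 5) to 0.18 (without course 1) for TFB1M, from -0.37 to 0.10 for TFB2M, from -0.015 to 0.34 for POLRMT and from -0.16 to 0.097 for POLG. The slope ran from -0.015 (without course 5) to 0.20 (without parental) for TFAM, from -0.000574009 to 0.27 for TWNK, from -0.14 (without parental) to 0.069 (without course 5) for POLG2 and from -0.086 to 0.14 for SSBP1. By total gene counts the log2 ratio of POLG in course 3 to parental turned from 0.06 to -0.01. Counted over the alternatives for single genes, 357 kept the direction and the side of the threshold or, where there was no test, moved within the counting interval, although some values shrank: without course 1 the pooled log2 fold change of TFAM went from -0.26 to -0.057 and that of TWNK from -0.30 to -0.037. A further 26 moved by more or, for levels per length, changed rank. Another 12 turned direction in the pooled or slope fits, and 5 came past the threshold. Ranks by length that stayed the same are among the 357.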

Other observations

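LONP1, a protease of the mitochondrial matrix that degrades TFAM, had 261, 262, 378 and 493.6 CPM in parental cells and courses 1, 3 and 5, and so did not share the low course 1 value of TFAM. It was chosen after its values were seen. The log2 ratio of LONP1 to the parental library was 0.92 in course 5, where TFAM stood at 0.05.

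The E-box letters CACGTG, present in 0 of the 8 member promoters searched, were found at 1073 expressed genes. Of these, 19.4% were lower in course 1 than in parental cells by 1.5-fold or more, beside 13.7% of the 7001 expressed genes without them. The difference was seen after the data had been examined and was not tested.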
